A study of Mus musculus with 27 samples.

Results

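The genes described here are 34 genes of glycolysis and of the response to low oxygen, listed by their symbols and followed in KUSA4b10 cells treated with parathyroid hormone (PTH) or parathyroid hormone-related protein (PTHrP). KUSA4b10, a stromal line from mouse marrow, is able to mature towards osteoblasts in culture. The groups were cells given PTH residues 1 to 34 at 10 nM, cells given PTHrP residues 1 to 141 at 20 nM, and untreated cells, each collected after 1, 6 and 24 h. Total RNA was read on 27 Affymetrix arrays, 3 in each of the 9 groups, and all groups share the one cell line with no other genotype or agent named in the labels. Peptide, peptide length and dose differ together between the ligands, so a difference of PTHrP from PTH cannot be assigned to any one of them.

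A gene was represented by the probe set, annotated to that symbol alone, with the highest mean over all arrays. Of the 34 genes, 32 had such a probe set, against 18194 genes in the whole table. The expression of Eno1 and Gpi1 was not analysed here, and they enter only the promoter counts. Gapdh was represented only by control probe sets of the array, which were kept out of the fit, so its values are given apart. The other 31 genes all passed the filter on low values (a log2 intensity of at least 5 on at least 3 arrays) and were tested among 15711 genes.

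Glycolysis splits glucose into pyruvate in the cytosol. Transporters bring glucose in, hexokinases trap it, phosphofructokinase commits it, and lactate dehydrogenase with the monocarboxylate transporters turns the pyruvate into exported lactate. Osteoblast-lineage cells are known to use this route heavily. Hif1a encodes the oxygen-regulated subunit of hypoxia-inducible factor, which prolyl hydroxylases such as the Egln1 product mark for destruction when oxygen is present, and which otherwise binds DNA at a short core and raises many glycolytic genes together with Car9, Ndrg1, Bnip3, Ankrd37 and the P4ha genes. The receptor shared by PTH and PTHrP raises cyclic AMP, whose own response element is bound by CREB.

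Promoter sequences are shown for 5 of the genes with the largest differences, because both the hypoxia core and the cyclic AMP element can be looked for in them. Each runs from 250 bases before to 50 bases after the start of the gene, on the gene's strand, from RefSeq on GRCm38.p6. The windows lie at chr4:119108495-119108794 on the plus strand for Slc2a1, chr6:82774405-82774704 on the minus strand for Hk2, chr3:104638414-104638713 on the plus strand for Slc16a1, chr12:73907617-73907916 on the plus strand for Hif1a and chr4:43506776-43507075 on the plus strand for Car9. Capitals mark the hypoxia core, ACGTG or GCGTG on either strand, and in Hk2 also the short form of the cyclic AMP response element, TGACG on either strand, which there overlaps a core. CACGTG holds the core on both strands.
Slc2a1: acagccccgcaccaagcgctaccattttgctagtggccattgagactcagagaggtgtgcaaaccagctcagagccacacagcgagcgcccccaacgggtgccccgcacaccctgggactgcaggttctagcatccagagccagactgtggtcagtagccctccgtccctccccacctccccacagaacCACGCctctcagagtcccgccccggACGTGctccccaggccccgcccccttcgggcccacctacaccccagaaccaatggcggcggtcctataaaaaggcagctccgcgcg
Hk2: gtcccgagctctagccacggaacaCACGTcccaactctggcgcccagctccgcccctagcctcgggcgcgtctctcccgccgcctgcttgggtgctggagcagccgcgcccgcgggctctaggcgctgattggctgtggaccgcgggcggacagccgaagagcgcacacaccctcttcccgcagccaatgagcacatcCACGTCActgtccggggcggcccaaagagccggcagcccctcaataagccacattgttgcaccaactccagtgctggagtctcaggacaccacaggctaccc
Slc16a1: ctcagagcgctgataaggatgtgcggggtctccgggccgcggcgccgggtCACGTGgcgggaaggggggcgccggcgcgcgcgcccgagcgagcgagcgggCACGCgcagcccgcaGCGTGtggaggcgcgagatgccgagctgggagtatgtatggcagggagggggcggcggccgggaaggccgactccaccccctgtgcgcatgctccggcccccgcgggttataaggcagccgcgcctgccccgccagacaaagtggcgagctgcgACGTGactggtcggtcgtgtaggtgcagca
Hif1a: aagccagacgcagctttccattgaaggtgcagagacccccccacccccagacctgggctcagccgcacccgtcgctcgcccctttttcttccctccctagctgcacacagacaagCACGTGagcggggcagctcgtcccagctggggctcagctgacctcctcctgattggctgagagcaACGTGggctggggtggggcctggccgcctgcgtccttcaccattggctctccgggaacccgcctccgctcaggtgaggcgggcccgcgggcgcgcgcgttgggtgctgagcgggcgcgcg
Car9: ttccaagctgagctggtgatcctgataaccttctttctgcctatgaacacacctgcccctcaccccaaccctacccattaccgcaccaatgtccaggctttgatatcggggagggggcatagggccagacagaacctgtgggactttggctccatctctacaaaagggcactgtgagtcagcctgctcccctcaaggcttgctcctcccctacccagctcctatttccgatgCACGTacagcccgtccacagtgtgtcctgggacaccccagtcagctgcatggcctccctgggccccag

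A core was found in 29 of the 32 genes with a promoter entry (90.6%), against 46.7% of the 27025 genes with one. Over windows the core was in 37 of 45 for the listed genes (82.2%), against 43.8% of 32851 windows in all. The windows of the listed genes were also richer in G and C, with a median of 62.3% against 52.7% in all windows, and the core is itself GC-rich. The short form TGACG was in 22.2% of the listed genes' windows, against 20.8% of all windows. The complete element TGACGTCA was found for 1 gene of 32, Ldha (3.12%), against 2.03% of all genes with an entry. All these counts leave out the windows of 1 chromosome, and those over all genes are not limited to the genes tested for expression. These matches describe letters in the windows, and binding was not measured. Slc2a3 and Ndrg1 are named without a sequence.

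The labelled cell type was checked against its markers. Of 9 listed osteoblast-lineage genes, 6 had a probe set annotated to them alone, and these were bright. Mean log2 intensities were 14.5 for Col1a1 and Col1a2, 12.4 for Alpl, 12.1 for Ibsp, 10.9 for Pth1r, the receptor of both ligands, and 10.0 for Sp7. Marrow stroma genes were mixed, at 13.0 for Cxcl12, 9.23 for Vcam1, 7.94 for Eng and 5.45 for Thy1. Adipocyte genes were also clearly present (Adipoq 11.3, Fabp4 10.6, Pparg 8.78), while of 5 macrophage and blood markers Csf1r averaged 7.87, Cd68 5.97, Adgre1 5.43, Ptprc 4.15 and Itgam 4.08, and of 3 endothelial markers Cdh5 averaged 5.24, Pecam1 5.03 and Tek 4.82. Ptprc, Itgam and Tek did not pass the filter. Chondrocyte markers averaged 8.14 for Col2a1, 7.82 for Sox9, 6.14 for Acan and 6.01 for Col10a1. Muscle markers averaged 6.73 for Acta1, 5.76 for Myod1 and 5.64 for Myog. Array medians of the linear intensity ran from 83.03 to 90.87. PTHrP at 1 h replicate 3 stood apart, with the lowest within-group correlation over genes at 0.983, against 0.992 or more in every other group. The 3 prime minus 5 prime log2 signal of Actb, a gauge of RNA integrity, averaged 0.34 with PTH, 0.30 with PTHrP and 0.25 in untreated cells at 6 h, and 0.42 with PTH, 0.44 with PTHrP and 0.38 in untreated cells at 24 h. Its part in the results was not tested.

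Levels below are log2 intensities and differences are log2 differences, where 1 unit is a 2-fold difference; an error after ± on a difference is the standard error from limma. Adjusted p-values are limma's, with Benjamini-Hochberg adjustment over the 15711 genes, and a gene is said to have risen or fallen when its adjusted p was under 0.05. With RNA from whole cultures, a change in the share of a cell type and a change in RNA per cell cannot be told apart. Both ligands were set against the same untreated arrays, so their results are given side by side.

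At 6 h the transcripts of the glucose transporter Slc2a1, the hexokinases Hk1 and Hk2, the lactate carrier Slc16a1 and Hif1a itself rose with both ligands. With PTH, 15 of the 31 genes rose and 1 fell, where 29.3% of all tested genes were called, 11.4% higher and 17.9% lower. With PTHrP, 14 rose and none fell at the threshold, where 20.9% of all genes were called, 8.7% higher and 12.2% lower. At an unadjusted p under 0.05, 21 of the 31 genes differed with PTH (67.7%, against 37.2% of all genes) and 20 with PTHrP (64.5%, against 31.3% of all genes). The median difference over the 31 genes was 0.36 with PTH and 0.40 with PTHrP, against -0.003 and 0.03 over all genes tested. Marker sums also differed at 6 h: the summed linear intensity of 6 osteoblast markers was 62241 to 63984 with PTH and 65043 to 69196 with PTHrP, against 71465 to 73925 in untreated cells, and that of 4 chondrocyte markers 675.3 to 746.3 with PTH and 722.4 to 765.9 with PTHrP, against 592.8 to 631.1 in untreated cells. The bright Col1a1 and Col1a2 weigh most in the osteoblast sum. Sums of macrophage and blood markers were also higher with PTHrP (402.43 to 442.94, against 347.35 to 383.22 in untreated cells). So were those of muscle markers (244.91 to 265.3 against 214.86 to 223.16) and endothelial markers (105.98 to 116.74 against 95.11 to 102.57). With PTH these last 3 overlapped the untreated arrays. Their part in the results was not tested.

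Slc2a1, the main basal glucose transporter (GLUT1), had 12.16, 12.20 and 12.36 with PTH and 11.94, 11.63 and 11.67 with PTHrP at 6 h, against 10.50, 10.58 and 10.51 in untreated cells. Every treated array lay above every untreated one, and the PTH arrays all lay above the PTHrP arrays. The differences were 1.71 ± 0.21 (3.27-fold, adjusted p = 4.12e-07) with PTH and 1.22 ± 0.21 (2.32-fold, adjusted p = 8.72e-05) with PTHrP. Slc2a3, a transporter of higher glucose affinity, rose by 0.33 ± 0.12 with PTH (adjusted p = 0.038); the call was lost without any 1 of untreated replicates 1, 2 and 3 or PTH replicates 1 and 2, at adjusted p from 0.072 to 0.20, and with the mean over its probe sets (0.14).

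Hk2, the inducible hexokinase, had 11.49, 11.59 and 11.59 with PTH and 11.04, 10.96 and 10.84 with PTHrP, against 10.29, 10.36 and 10.31 in untreated cells at 6 h. The groups were fully separated, in the order PTH, PTHrP, untreated. Its rise was 1.24 ± 0.11 in cells given PTH (adjusted p = 3.52e-09) and 0.63 ± 0.11 in those given PTHrP (adjusted p = 0.000166). Hk1, the constitutive hexokinase, rose by 0.47 ± 0.08 with PTH and by 0.57 ± 0.08 with PTHrP. Among the phosphofructokinase subunits, Pfkp rose by 0.51 ± 0.10 with either ligand and Pfkl rose most with PTHrP at this time, by 0.48 ± 0.10 (0.28 with the mean over its 3 probe sets). In a fit over probe sets, the others of Pfkl did not pass with PTH (0.31, adjusted p = 0.055, and 0.20, adjusted p = 0.21). With PTHrP the dimmer of these (-0.07, adjusted p = 0.73) and the dimmest of Pfkp (0.16, adjusted p = 0.34) did not pass. Pfkm, the muscle-type subunit, fell with PTH by 0.42 on the log2 scale (SE 0.08, adjusted p = 0.00016).

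Of the 4 tested genes of the lower steps (Pgk1, Pgam1, Eno2 and Pkm), Eno2, the neuronal-type enolase, was the one that rose at 6 h. Eno2 had 11.12, 11.10 and 11.03 with PTH and 11.05, 11.12 and 10.82 with PTHrP, against 10.07, 10.34 and 10.19 in untreated cells. No treated array overlapped the untreated ones. The differences were 0.88 ± 0.15 for PTH (adjusted p = 6.56e-05) and 0.80 ± 0.15 for PTHrP (adjusted p = 0.000373). Of the bifunctional enzymes that set fructose 2,6-bisphosphate, the activator of phosphofructokinase, Pfkfb3 had 10.14, 10.24 and 10.26 with PTH and 10.06, 9.86 and 9.80 with PTHrP, against 9.45, 9.62 and 9.56 in untreated cells. All treated arrays were above the untreated ones, with a difference of 0.67 ± 0.13 with PTH (adjusted p = 0.000348), and of 0.37 ± 0.13 with PTHrP that did not pass (adjusted p = 0.054). Pfkfb4 rose by 0.94 ± 0.15 with PTH.

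Slc16a1, which encodes the lactate and pyruvate carrier MCT1, had 11.33, 11.64 and 11.63 with PTH and 11.11, 10.69 and 10.93 with PTHrP, against 9.86, 9.98 and 9.95 in untreated cells at 6 h. The 3 groups did not overlap. The differences were 1.60 ± 0.11 (3.03-fold, adjusted p = 4.35e-11) with PTH and 0.97 ± 0.11 (1.97-fold, adjusted p = 4.56e-07) with PTHrP. With the mean over the gene's probe sets, of which the other was dim (mean level 4.47), they were 1.02 with PTH and 0.57 with PTHrP. Slc16a3, which encodes the lactate exporter MCT4, rose with PTHrP by 0.57 ± 0.11; with PTH its arrays (7.26, 7.14 and 6.99) overlapped the untreated ones (7.06, 6.99 and 7.41). Ldhb, the lactate dehydrogenase subunit that favours pyruvate formation, rose by 0.71 ± 0.08 with PTH and by 0.57 ± 0.08 with PTHrP.

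Hif1a had 12.45, 12.55 and 12.45 with PTH and 12.12, 12.05 and 12.12 with PTHrP, against 11.66, 11.41 and 11.32 in untreated cells at 6 h. The PTH arrays were highest, the PTHrP arrays lay between, and no groups overlapped. The rise of its transcript was 1.02 ± 0.11 (adjusted p = 3.68e-08) in cells given PTH and 0.63 ± 0.11 (adjusted p = 7.03e-05) in those given PTHrP; the protein was not measured. Of its 4 probe sets, 3 gave differences of 1.02 to 1.47 with PTH and 1 gave 0.31, which did not pass. Egln1, one of the hydroxylases that limit the Hif1a protein, rose by 0.60 ± 0.10 with PTHrP and by 0.57 with PTH.

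Ndrg1, a stress gene that rises in low oxygen, had 13.00, 12.93 and 12.86 with PTH and 12.99, 12.85 and 12.80 with PTHrP, against 11.45, 11.87 and 11.67 in untreated cells at 6 h. The 2 ligands overlapped each other, and both lay above the untreated arrays. The differences were 1.26 ± 0.13 (adjusted p = 4.19e-08) with PTH and 1.21 ± 0.13 (adjusted p = 1.68e-07) with PTHrP. P4ha2, a subunit of the collagen prolyl hydroxylase, rose by 0.69 ± 0.14 with PTHrP and by 0.67 with PTH. Bnip3, a mitochondrial protein of hypoxic cells, rose by 0.47 ± 0.17 with PTHrP. The Bnip3 call (adjusted p = 0.049) was lost without any 1 of the 6 arrays compared, at differences of 0.44 to 0.51.

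**Figure D1:**
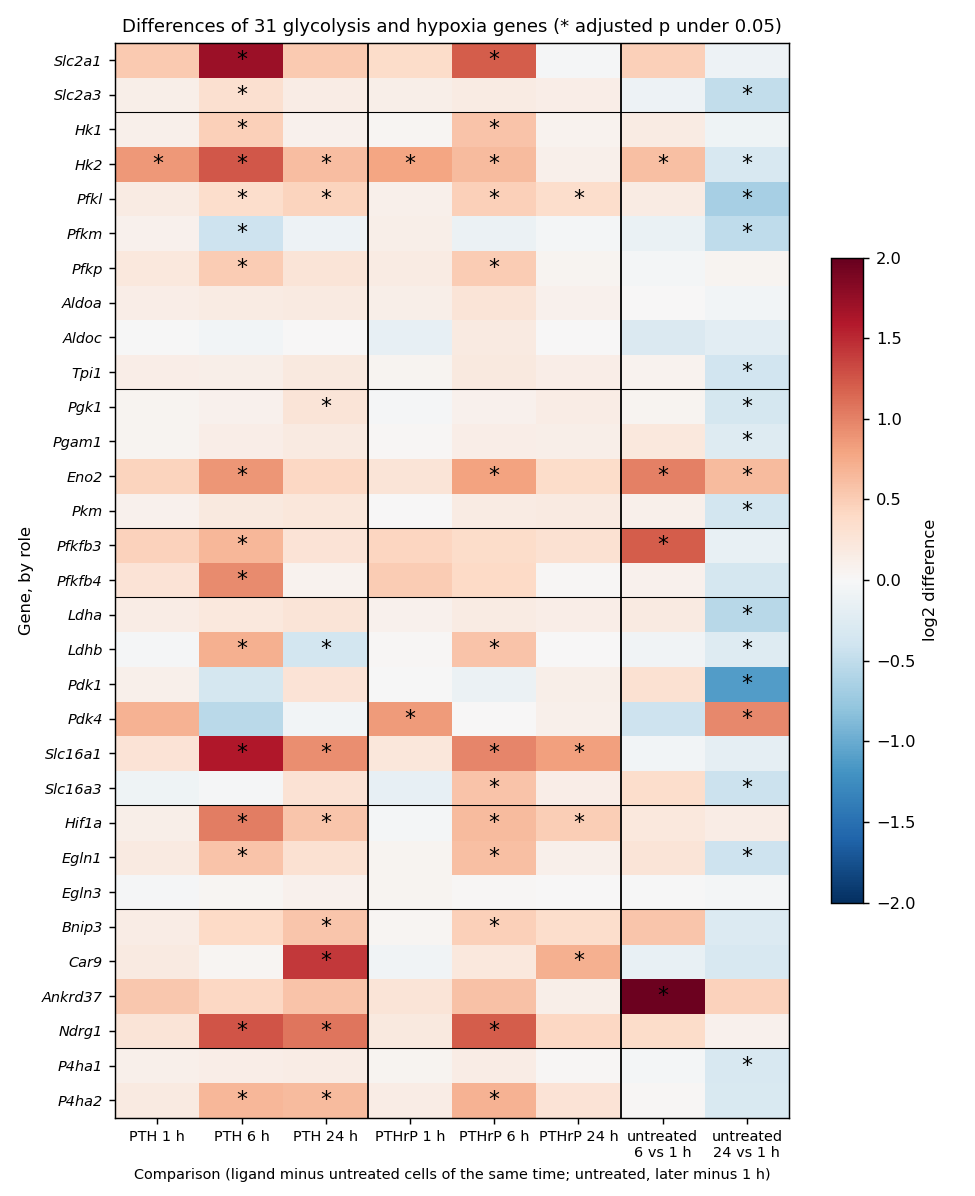
Log2 differences (colour, from -2 to 2) of the 31 tested genes, one row per gene ordered by role, in 8 comparisons: PTH and PTHrP each against untreated cells of the same time, and untreated cells at 6 h and 24 h against 1 h. A star marks an adjusted p under 0.05 in limma; at 6 h Slc2a1, Hk1, Hk2, Pfkl, Pfkp, Eno2, Ldhb, Slc16a1, Hif1a, Egln1, Ndrg1 and P4ha2 carry a star for PTH and for PTHrP.

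At 1 h, Hk2 and, with PTHrP, Pdk4 were the genes of the set that rose. With PTH, 1 of the 31 genes rose, where 1.74% of all genes were called, 1.44% higher and 0.299% lower. With PTHrP, 2 rose, where 1.81% of all genes were called, 1.57% higher and 0.248% lower. Without PTHrP replicate 3, 3 genes were called for PTH and 4 for PTHrP, and without PTH replicate 1, 2 were called for PTH. With array weights 7 genes were called for PTH, where 5.1% of all genes then were, and 5 for PTHrP, where 11.2% of all genes then were. Unadjusted p-values under 0.05 were found for 8 of the 31 genes with PTH (25.8%, against 9.12% of all genes) and 4 with PTHrP (12.9%, against 9.46% of all genes). Marker sums differed at 1 h as well. For 4 chondrocyte markers the summed linear intensity was 737.2 to 833.6 with PTH and 686.9 to 910.7 with PTHrP. In untreated cells it was 578.8 to 626.6. Muscle marker sums were 193.1 to 216.3 with PTH, against 219.9 to 244.7 in untreated cells, which those with PTHrP overlapped. The Actb 3 prime minus 5 prime signal averaged 0.27 with PTH, 0.28 with PTHrP and 0.23 in untreated cells. Their part in the results was not tested.

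Hk2 was the gene that rose with each ligand at 1 h, with 10.51, 10.64 and 10.59 with PTH and 10.68, 10.45 and 10.36 with PTHrP, against 9.85, 9.67 and 9.62 in untreated cells. Every treated array was above every untreated one. The differences were 0.87 ± 0.11 (1.82-fold, adjusted p = 1.12e-05) with PTH and 0.78 ± 0.11 (1.72-fold, adjusted p = 5.78e-05) with PTHrP, and both calls held under all 15 alternative settings. Pdk4, a kinase that switches off pyruvate dehydrogenase, had 8.73, 8.99 and 9.16 with PTH and 9.55, 9.29 and 8.52 with PTHrP, against 8.28, 8.25 and 8.27 in untreated cells. The treated arrays lay above the untreated ones, the lowest PTHrP value being that of the replicate that stood apart. The difference of 0.86 ± 0.21 with PTHrP passed (adjusted p = 0.029) but was lost without any 1 of the untreated arrays (adjusted p from 0.094 to 0.11) or of PTHrP replicates 1 and 2 (0.29 and 0.16), and that of 0.70 ± 0.21 with PTH did not pass (adjusted p = 0.127). Slc2a1 (0.52 ± 0.21 with PTH) and Hif1a (0.11 ± 0.11 with PTH) did not pass at this time.

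At 24 h, Slc16a1, Hif1a, Pfkl and Car9 stood above untreated cells with each ligand. With PTH, 9 of the 31 genes rose and 1 fell, where 11.6% of all genes were called, 5.69% higher and 5.96% lower. With PTHrP, 4 rose and none fell at the threshold, where 6.1% of all genes were called, 3.09% higher and 3.02% lower. Without any 1 of the untreated arrays, or without PTHrP replicate 2, 2 genes were called for PTHrP, and likewise 2 with no filter or with only the groups compared in the fit. With array weights 23 genes were called for PTH, where 27.9% of all genes then were. Pfkl was among the calls lost, with differences of 0.20 without PTHrP replicate 2 and 0.30 to 0.39 without an untreated array. The medians were 0.26 with PTH and 0.12 with PTHrP, against -0.001 and -0.009 over all genes. The summed linear intensity of 6 osteoblast markers was also lower with each ligand at this time, at 36023 to 39041 with PTH and 41724 to 49774 with PTHrP, against 57483 to 58563 in untreated cells. That of 3 adipocyte markers was 2055.5 to 3318.9 with PTH and 1959 to 4772.5 with PTHrP, against 3687 to 5655 in untreated cells. For 4 chondrocyte markers it was 516.3 to 587.6 with PTH and 500 to 563.4 with PTHrP, against 644.7 to 679.3 in untreated cells. With PTHrP the sums of macrophage and blood markers (351.97 to 376.69 against 379.2 to 405.55 in untreated cells) were lower too. So were those of muscle markers (177.78 to 186.24 against 199.89 to 207.27). Their part in the results was not tested.

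Car9, the cell-surface carbonic anhydrase used as a marker of hypoxia-inducible factor, had 8.90, 9.12 and 9.06 with PTH and 7.95, 8.96 and 8.08 with PTHrP at 24 h, against 7.51, 7.64 and 7.71 in untreated cells. All PTH arrays were high, while with PTHrP replicate 2 alone reached the PTH range. The differences were 1.41 ± 0.21 (2.65-fold, adjusted p = 4.39e-05) with PTH and 0.71 ± 0.21 (adjusted p = 0.046) with PTHrP, and without that replicate the PTHrP difference was 0.40, which did not pass (adjusted p = 0.412). The PTHrP call was also lost without any 1 untreated array, at differences of 0.66 to 0.76. At 6 h Car9 had 7.89, 8.04 and 7.57 with PTH and 8.11, 7.98 and 7.90 with PTHrP, against 7.71, 7.89 and 7.76 in untreated cells, and neither ligand passed. The change of the PTH effect between 6 and 24 h was 1.36 ± 0.30 (adjusted p = 0.0017). Of the 9 genes of the set called for that change, 2 moved upward, Car9 among them, and 7 downward. Over all genes tested 12.6% were called upward and 7.82% downward.

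Ndrg1 at 24 h had 12.45, 12.55 and 12.37 with PTH and 11.63, 12.14 and 11.64 with PTHrP, against 11.54, 11.30 and 11.32 in untreated cells. The PTH arrays lay above all others. The difference was 1.07 ± 0.13 with PTH (adjusted p = 2.2e-06), and that of 0.42 ± 0.13 with PTHrP did not pass (adjusted p = 0.062).

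Slc16a1 had 10.94, 10.66 and 10.62 with PTH and 10.68, 10.68 and 10.53 with PTHrP, against 9.83, 9.80 and 9.80 in untreated cells at 24 h. The ligands overlapped each other and stood clear of untreated cells. Its rise was 0.93 ± 0.11 in cells given PTH (adjusted p = 1.94e-06) and 0.82 ± 0.11 in those given PTHrP (adjusted p = 1.81e-05). With the mean over its probe sets these were 0.37 with PTH and 0.33 with PTHrP, and both still passed. Hif1a had 11.95, 11.89 and 12.04 with PTH and 11.94, 12.01 and 11.73 with PTHrP, against 11.40, 11.45 and 11.35 in untreated cells. Here too the ligands overlapped each other and not the untreated arrays, with differences of 0.56 ± 0.11 for PTH (adjusted p = 0.000582) and 0.49 ± 0.11 for PTHrP (adjusted p = 0.00324).

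Hk2 at 24 h had 10.05, 10.04 and 9.93 with PTH and 9.40, 9.83 and 9.22 with PTHrP, against 9.55, 9.33 and 9.28 in untreated cells. PTH arrays were above the rest, and the PTHrP arrays spanned the untreated range. The PTH difference was 0.62 ± 0.11 (adjusted p = 0.000327), and the PTHrP difference of 0.10 ± 0.11 did not pass. Slc2a1 had 10.55, 10.37 and 10.51 with PTH and 9.81, 10.55 and 9.42 with PTHrP, against 10.42, 9.77 and 9.65 in untreated cells, and neither ligand passed (0.53 ± 0.21 with PTH and -0.02 ± 0.21 with PTHrP). Slc2a1 levels of the 3 groups overlapped at this time, unlike at 6 h.

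Smaller rises with PTH at 24 h were those of P4ha2 (0.64 ± 0.14), Bnip3 (0.55 ± 0.17), Pfkl (0.44 ± 0.10) and Pgk1, phosphoglycerate kinase (0.25 ± 0.08). The Pgk1 call was lost without any 1 of the 6 arrays compared (0.22 to 0.29), and that of Bnip3 without any 1 of them but untreated replicate 1 (0.47 to 0.57). Ldhb, which had risen at 6 h, had 10.36, 10.04 and 10.21 with PTH and 10.44, 10.61 and 10.70 with PTHrP, against 10.63, 10.57 and 10.51 in untreated cells at 24 h. All PTH arrays were below the untreated ones, and it fell with PTH by 0.37 on the log2 scale (SE 0.08, adjusted p = 0.00294). The change of the PTH effect on Ldhb between 6 and 24 h was -1.08 ± 0.11 (adjusted p = 2e-07).

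**Figure D2:**
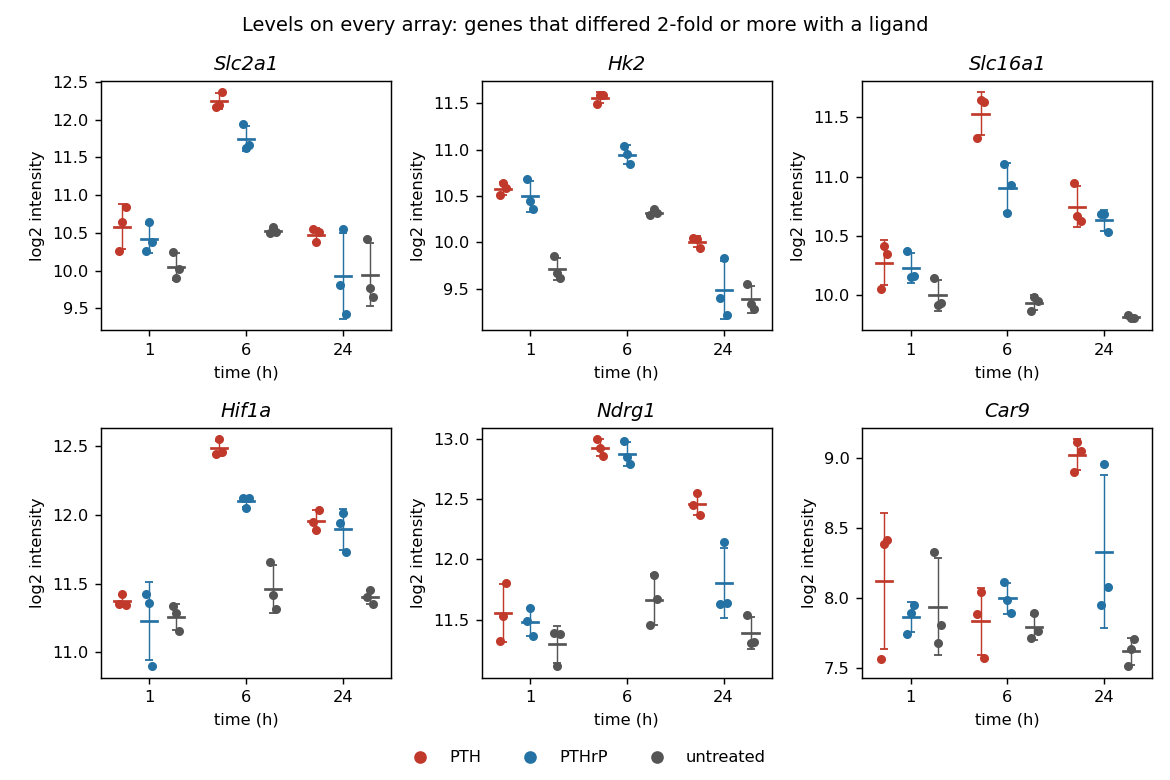
Log2 intensity on every array against time (1, 6 and 24 h) for the 6 genes that differed 2-fold or more from untreated cells with a ligand: points are arrays, bars are means with SD (n = 3), with PTH left, PTHrP in the middle and untreated cells right at each time. Slc2a1, Hk2, Slc16a1, Hif1a and Ndrg1 are highest at 6 h with PTH, while Car9 is highest at 24 h, where the PTH arrays lie between 8.90 and 9.12.

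The effects of the ligands changed with time for part of the set. Between 1 and 6 h the PTH effect changed for 9 of 31 genes, 7 upward and 2 downward, where 18.5% of all genes were called (6.49% upward and 12.1% downward). The PTHrP effect changed for 7 genes, all upward, where 12.2% of all genes were called (3.74% upward and 8.45% downward). The largest upward change was that of Slc16a1 with PTH (1.32 ± 0.16) and of Ndrg1 with PTHrP (1.03 ± 0.19). Between 6 and 24 h the PTH effect changed for 9 genes, 2 upward and 7 downward, where 20.4% of all genes were called (12.6% upward and 7.82% downward). The PTHrP effect changed for 7 genes, all downward, where 12.1% of all genes were called (7.08% upward and 5.03% downward). Slc2a1 had the largest downward change with PTHrP, -1.23 ± 0.29, and changed by -1.18 ± 0.29 with PTH. Without untreated replicate 1 or PTHrP replicate 1 or 3 at 24 h, or PTHrP replicate 1 at 6 h, 4 genes were called for the later PTHrP change, and without PTHrP replicate 2 at 24 h 10 were. With array weights 14 were called for the later PTH change, where 32.6% of all genes then were, and 12 for the earlier PTHrP change, where 39.6% then were.

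One array of a group often carried these genes together. PTHrP at 24 h replicate 2 was the highest of its 3 arrays for 26 of the 31 genes (83.9%), against 35.6% of all genes tested, and its median deviation from the group mean was 0.23 over the 31 genes and 0.002 over all genes. PTH at 1 h replicate 3 was highest for 24 (77.4%, against 39.6% of all genes), and untreated cells at 24 h replicate 1 for 22 (71%, against 37.3%). What set these arrays apart was not tested.

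Setting PTHrP against PTH, no gene of the set differed at 1 h, where 0% of all genes were called by limma; at an unadjusted p under 0.05 none of the 31 and 632 of all genes differed. For Hk2 at 1 h the difference was -0.08, with a 95% confidence interval from -0.32 to 0.15. At 6 h, 2 of the 31 genes were higher and 4 lower with PTHrP, where 7.62% of all genes were called, 4.45% higher and 3.17% lower. With array weights 10 were called, where 28.9% of all genes then were. Those lower with PTHrP were Slc16a1 (-0.63 ± 0.11, adjusted p = 0.00108), Hk2 (-0.61 ± 0.11, adjusted p = 0.00116), Pfkfb4 (-0.54 ± 0.15, adjusted p = 0.032) and Hif1a (-0.39 ± 0.11, adjusted p = 0.025). Slc16a3 (0.59 ± 0.11, adjusted p = 0.00139) and Pfkm (0.30 ± 0.08, adjusted p = 0.019) were higher. Pfkfb3 did not pass on the probe set used (-0.30). Its other probe set was lower with PTHrP in a fit over probe sets (-0.38, adjusted p = 0.019). Leaving out PTH replicate 3, or any 1 PTHrP array, left 3 genes called, 1 higher and 2 lower. The calls that were lost without 1 array were those of Hif1a (-0.40 to -0.35), Pfkfb4 (-0.56 to -0.39) and Pfkm (0.28 to 0.31).

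Slc2a1 at 6 h was lower with PTHrP on every array, but its difference of -0.49 did not pass (interval from -0.92 to -0.07, adjusted p = 0.160). Ndrg1 differed by -0.05 at 6 h, with an interval from -0.32 to 0.22, which excludes a difference as large as that of either ligand from untreated cells. At 24 h, 1 gene was higher and 2 lower with PTHrP, where 1.16% of all genes were called, 0.84% higher and 0.318% lower. Ndrg1 was lower by -0.66 ± 0.13 (adjusted p = 0.0096) and Hk2 by -0.53 ± 0.11 (adjusted p = 0.0152), while Ldhb was higher by 0.38 ± 0.08 (adjusted p = 0.0158). The 24 h calls changed with the arrays kept. Without PTHrP replicate 2, 5 genes were called, all lower with PTHrP; without PTHrP replicate 1, 1 was called, and without PTHrP replicate 3 or PTH replicate 2, none was. With only these groups in the fit none was called, and with array weights 6 were, where 8.1% of all genes then were. Where leaving out 1 array lost their calls, Ndrg1 was at -0.61 to -0.57, Hk2 at -0.51 to -0.39 and Ldhb at 0.30 to 0.38. For Slc16a1 the 24 h difference was -0.11, with an interval from -0.35 to 0.12, and for Hif1a -0.06, from -0.28 to 0.15.

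**Figure D3:**
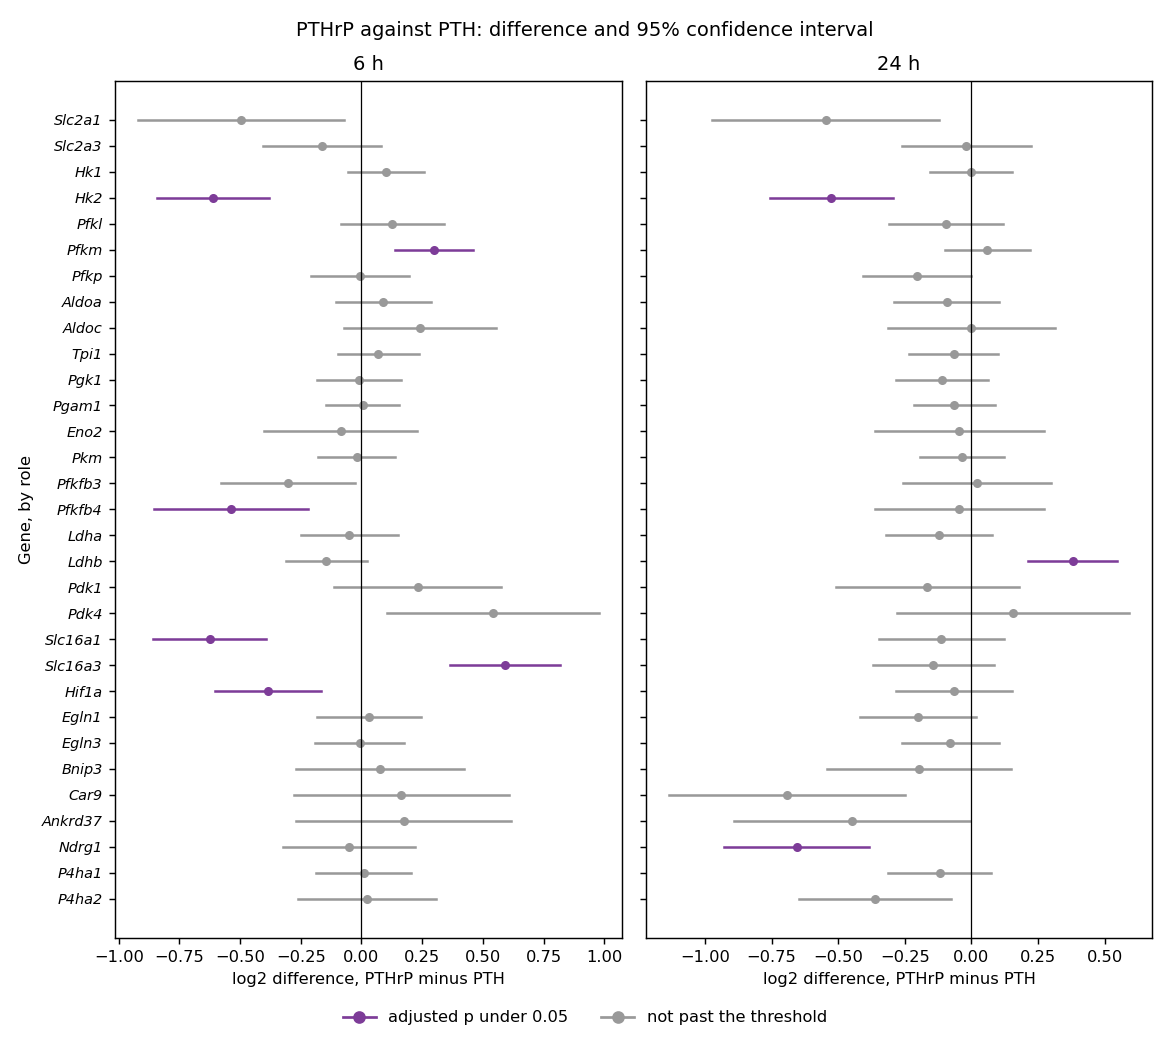
Log2 difference of PTHrP from PTH (points) with 95% confidence intervals from limma (lines) for the 31 genes at 6 h and 24 h, where values left of 0 are lower with PTHrP; purple marks an adjusted p under 0.05. At 6 h Slc16a1, Hk2, Pfkfb4 and Hif1a lie left of 0 and Slc16a3 and Pfkm right, and at 24 h Ndrg1 and Hk2 lie left and Ldhb right.

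The set also moved with time in culture without ligand. In untreated cells 4 of the 31 genes rose at 6 h against 1 h and none fell at the threshold, where 2.27% of all genes were called, 0.719% higher and 1.55% lower. With only these groups in the fit 7 were called, and with array weights 10 were, where 8.32% of all genes then were. At 24 h against 1 h, 2 rose and 14 fell, where 23.1% of all genes were called, 11.6% higher and 11.5% lower. The median over the set was 0.10 at 6 h and -0.27 at 24 h, against -0.009 and -0.005 over all genes. The osteoblast marker sum was 68691 to 72886 at 1 h, 71465 to 73925 at 6 h and 57483 to 58563 at 24 h in untreated cells, and the Actb 3 prime minus 5 prime signal averaged 0.23 at 1 h, 0.25 at 6 h and 0.38 at 24 h. Their part in the results was not tested.

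Ankrd37, a small target of hypoxia-inducible factor, had 7.86, 7.11 and 7.38 at 1 h, 9.35, 9.46 and 9.43 at 6 h and 8.10, 7.78 and 7.83 at 24 h in untreated cells. Its 6 h arrays stood above all the others. The rise at 6 h was 1.96 ± 0.21 (3.89-fold, adjusted p = 2.73e-06), larger than any ligand difference in the set, and the ligand differences of Ankrd37 at 6 h, 0.41 ± 0.21 with PTH and 0.58 ± 0.21 with PTHrP, did not pass. Pfkfb3 had 8.49, 8.32 and 8.19 at 1 h, 9.45, 9.62 and 9.56 at 6 h and 8.29, 8.17 and 8.09 at 24 h. It was high only in the middle of the series, by 1.21 ± 0.13 against 1 h (adjusted p = 3.32e-06).

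Eno2 in untreated cells had 9.42, 9.07 and 9.07 at 1 h, 10.07, 10.34 and 10.19 at 6 h and 9.85, 9.78 and 9.83 at 24 h, and both later times lay above 1 h. It rose by 1.01 ± 0.15 at 6 h (adjusted p = 0.000284) and by 0.63 ± 0.15 at 24 h (adjusted p = 0.00334). Hk2, the remaining gene that rose at 6 h, had 9.85, 9.67 and 9.62 at 1 h, 10.29, 10.36 and 10.31 at 6 h and 9.55, 9.33 and 9.28 at 24 h. It rose by 0.61 ± 0.11 at 6 h and fell at 24 h by 0.33 on the log2 scale (SE 0.11, adjusted p = 0.035), a call lost without replicate 1 or 2 at 1 h or replicate 2 or 3 at 24 h (-0.35 to -0.26).

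Pdk1, a pyruvate dehydrogenase kinase, had 11.01, 10.64 and 10.66 at 1 h, 11.12, 11.06 and 11.06 at 6 h and 9.77, 9.58 and 9.62 at 24 h in untreated cells. The 24 h arrays lay below all earlier ones, by -1.11 ± 0.17 against 1 h (adjusted p = 1.57e-05). Its probe sets disagreed: 2 others also fell at 24 h, by 0.93 and 0.88 on the log2 scale, while 1 rose by 0.67 at 24 h and by 2.34 at 6 h. With the mean over them the 24 h difference was -0.56. Pdk4 rose at 24 h, by 0.95 ± 0.21 (adjusted p = 0.00142), with 9.33, 9.18 and 9.15 at 24 h, against 8.28, 8.25 and 8.27 at 1 h.

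The other genes that fell in untreated cells by 24 h spanned the pathway. The phosphofructokinase subunits Pfkl (-0.67 ± 0.10) and Pfkm (-0.51 ± 0.08), the transporters Slc2a3 (-0.50 ± 0.12) and Slc16a3 (-0.43 ± 0.11), and Ldha, the subunit that favours lactate formation (-0.56 ± 0.10), were among them. Pfkl's probe sets disagreed: a second fell by 0.60 on the log2 scale, while a dimmer one rose by 0.34 at 24 h and by 0.74 at 6 h, and with the mean over the 3 the 24 h difference was -0.31. For Slc2a3 that mean gave -0.26. Egln1 fell by 0.42 on the log2 scale (SE 0.10). Smaller falls were those of Tpi1, triosephosphate isomerase (-0.38 ± 0.08), Pkm, pyruvate kinase (-0.37 ± 0.08), Pgk1 (-0.35 ± 0.08), P4ha1 (-0.32 ± 0.09), Pgam1, phosphoglycerate mutase (-0.26 ± 0.07), and Ldhb (-0.26 ± 0.08). The P4ha1 call was lost without replicate 1 at 1 h (-0.26) or replicate 3 at 24 h (-0.28). That of Ldhb was lost without any 1 of the arrays compared but replicate 1 at 24 h (-0.26 to -0.23).

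**Figure D4:**
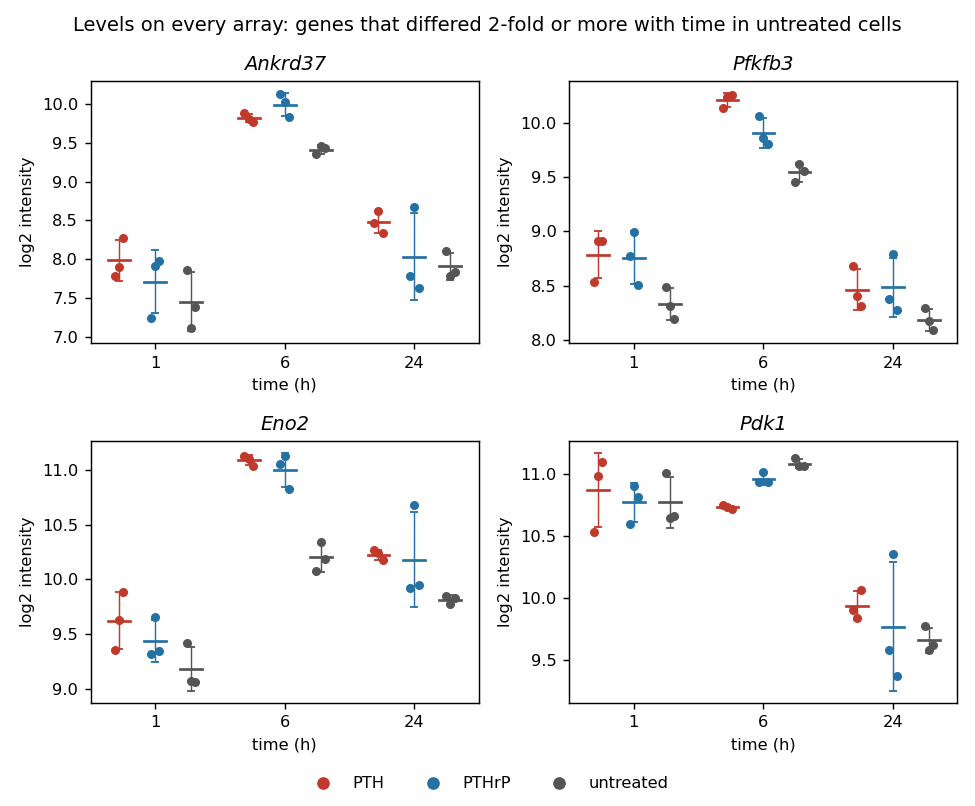
Log2 intensity on every array against time (1, 6 and 24 h) for the 4 genes that differed 2-fold or more with time in untreated cells: points are arrays, bars are means with SD (n = 3), with PTH left, PTHrP in the middle and untreated cells right at each time. In untreated cells Ankrd37, Pfkfb3 and Eno2 are highest at 6 h, and Pdk1 is lowest at 24 h, between 9.58 and 9.77.

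Of the 31 genes, 10 did not pass with a ligand at any time in the fit without array weights. These were Aldoa, Aldoc, Tpi1, Pgam1, Pkm, Ldha, Pdk1, Egln3, Ankrd37 and P4ha1. With array weights 23 of the 31 genes were called for PTH at 24 h, where 27.9% of all genes then were. Some of these 10 therefore passed under that setting. The bright enzymes among them differed little with a ligand: Aldoa, an aldolase, stayed between 12.6 and 13.2 over all 27 arrays and Ldha between 12.2 and 13.3, with ligand differences of 0.09 to 0.26 for Aldoa and 0.08 to 0.26 for Ldha. Tpi1, Pgam1 and Pkm differed by 0.02 to 0.22. Egln3, another oxygen-sensing hydroxylase, lay between 4.81 and 5.23 on all arrays, near the filter, and Aldoc, a brain-type aldolase, between 5.33 and 6.43. On the probe sets used, Aldoa, Aldoc and Egln3 passed in none of the 15 comparisons. Other probe sets passed with PTHrP at 6 h, in a fit over probe sets: 2 of Aldoa (0.31, adjusted p = 0.039, and 0.34, adjusted p = 0.043) and 1 of Tpi1 (0.25, adjusted p = 0.033).

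Gapdh, the dehydrogenase often used as a reference gene, was read by 3 control probe sets. They were higher than in untreated cells at 6 h by 0.18 to 0.23 with PTH and by 0.12 to 0.18 with PTHrP, and at 24 h with PTH by 0.19 to 0.21. Each of these had an exact two-sided permutation p of 0.1, the smallest that 3 arrays against 3 allow. In untreated cells the 3 probe sets were lower at 24 h than at 1 h, with differences of -0.21 to -0.16 (exact permutation p = 0.1 each).

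Neighbouring genes were taken from lists chosen with earlier results of these data known. Among 28 other targets of hypoxia-inducible factor, at 6 h 19 were higher and none lower with PTH (67.9%) and 18 higher and none lower with PTHrP (64.3%). At 24 h 9 rose with PTH (32.1%) and 3 with PTHrP (10.7%). Over all genes tested, 11.4% were higher with PTH and 8.7% with PTHrP at 6 h, and 5.69% and 3.09% at 24 h. The list's median at 6 h was 0.49 with PTH and 0.57 with PTHrP. With PTH at 6 h its largest differences were those of Vegfa, the vascular growth factor (1.67 ± 0.11), Car12, another carbonic anhydrase (1.61 ± 0.19), Ero1a, an oxidase of protein folding (1.57 ± 0.15), and Ddit4, an inhibitor of mTOR (1.45 ± 0.11). With PTHrP they were those of Car12 (1.33 ± 0.19), Gys1, glycogen synthase (1.26 ± 0.11), Gbe1, the glycogen branching enzyme (1.17 ± 0.16), and Vegfa (1.14 ± 0.11). At 1 h, 2 of the 28 rose and 1 fell with each ligand (10.7% called). Over all genes 1.74% were called with PTH and 1.81% with PTHrP at that time. At 1 h Ddit4 stood at 2.59 ± 0.11 with PTH and 2.50 ± 0.11 with PTHrP. Vegfa stood at 1.57 ± 0.11 with PTH and 1.38 ± 0.11 with PTHrP. The cause was not tested. Adm, the peptide adrenomedullin, rose by 1.30 ± 0.19 with PTH at 24 h.

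Of 15 regulators of hypoxia-inducible factor, 8 rose and 2 fell at 6 h in cells given PTH (66.7% called). In those given PTHrP 5 rose and 2 fell (46.7% called). Arnt2, a partner subunit, fell with both (-1.24 ± 0.17 with PTH and -1.22 ± 0.17 with PTHrP), while Bhlhe40, a hypoxia-inducible repressor, rose at 6 h with PTH by 1.22 ± 0.10, and Siah2, a ligase that removes the hydroxylases, by 1.15 ± 0.10. Bhlhe40 had risen at 1 h, by 1.78 ± 0.10 with PTH and 1.61 ± 0.10 with PTHrP. Of 29 other glycolysis and pyruvate genes, at 6 h PTH raised 5 and lowered 4, and PTHrP raised 4 and lowered 3, with medians of 0.06 for each ligand. These shares called, 31% with PTH and 24.1% with PTHrP, lie near the 29.3% and 20.9% of all genes. Of 13 pentose phosphate and gluconeogenesis genes none rose at 6 h, while 3 fell with PTH and 1 with PTHrP. These shares called, 23.1% with PTH and 7.69% with PTHrP, lie below those of all genes. Over all genes 11.4% were higher and 17.9% lower with PTH, and 8.7% higher and 12.2% lower with PTHrP. Of 13 collagen modification genes, PTH raised 5 and lowered 2 (53.8% called) and PTHrP raised 6 and lowered 2 (61.5% called). Among the raised ones was Plod2, a lysyl hydroxylase (1.43 ± 0.14 with PTH and 1.11 ± 0.14 with PTHrP).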

How the data were processed

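Total RNA of KUSA4b10 cells was measured on 27 one-colour Affymetrix arrays, 3 in each of 9 groups, per the labels. The intensity values deposited by the authors came from RMA, according to the submitters' processing notes, and were normalized a second time for the deposit, per the design text. The RMA version is not given in the sources used here. RMA aligns the distributions of all arrays, so a shift shared by most transcripts would not be visible, and it understates folds of dim genes.

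The table held 45101 probe sets on a linear scale, and log2 was taken here. Its 64 control probe sets were left out. Symbols came from the platform annotation, which gave 34945 of the other probe sets 1 symbol and 932 several, and did not list 9211, controls included. For a gene with several probe sets, the one with the highest mean was kept. The filter asked for a log2 intensity of 5 or more on 3 or more arrays, which left 15711 genes.

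limma 3.58.1 in R 4.3.3 (lmFit and eBayes) fitted 9 group means to all arrays, with 18 residual and 5.54 prior degrees of freedom, and 15 two-sided comparisons were made, each adjusted by Benjamini-Hochberg over the 15711 genes with a threshold of 0.05. The number of arrays limits the precision, with a median SE of 0.102 for a difference of 2 groups. The fit was checked on simulated data. Gapdh was compared by exact permutation. Whether replicates came from separate cultures is not in the labels, and the p-values therefore speak only of the spread among these arrays, which may be technical. Of 9 pairs of groups at one time, 1 (PTHrP and untreated cells at 1 h) had all same-numbered arrays correlated above 0.1 after group means were removed, so the number served as a block only in alternatives.

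The members, the related lists and the markers were chosen with earlier results of these data known. Genes that passed with a log2 difference of at least 1 against untreated cells, or with time in untreated cells, are given on every array; others that passed are given where they differed most, and a few more on every array where another gene's result is set beside them. Motifs were searched with Python 3.11.15 in RefSeq promoter windows. Alternatives were no filter, a filter at 6, the mean over a gene's probe sets, other normalizations, array weights, only the groups compared, the block, and leaving out each array.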

Additional observations from a re-analysis of the deposited data

Results flagged for a closer look

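The effect of a ligand against untreated cells differed between times, by limma's test of the change itself with Benjamini-Hochberg adjustment over the 15711 genes, for 32 pairs of a gene and a change. All values are log2 changes of the difference from untreated cells, later minus earlier time, over 3 arrays a group.

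Between 1 and 6 h the PTH effect moved up for Slc2a1 (1.19), Hk1 (0.36), Pfkfb4 (0.66), Ldhb (0.73), Slc16a1 (1.32), Hif1a (0.91) and Ndrg1 (1.00), and down for Pfkm (-0.51) and Pdk4 (-1.24). The PTHrP effect moved up over the same interval for Hk1 (0.53), Ldhb (0.54), Slc16a1 (0.74), Slc16a3 (0.72), Hif1a (0.67), Egln1 (0.54) and Ndrg1 (1.03).

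Between 6 and 24 h the PTH effect moved down for Slc2a1 (-1.18), Hk1 (-0.39), Hk2 (-0.62), Pfkfb4 (-0.87), Ldhb (-1.08), Slc16a1 (-0.67) and Hif1a (-0.46), and up for Pfkm (0.31) and Car9 (1.36). The PTHrP effect moved down for Slc2a1 (-1.23), Hk1 (-0.50), Hk2 (-0.53), Pfkp (-0.45), Ldhb (-0.56), Egln1 (-0.50) and Ndrg1 (-0.80). Leaving out 1 array ended the calls of Hk1 (0.31 to 0.32 where lost) and Pfkfb4 (0.52 to 0.66) for the PTH change between 1 and 6 h, and of Hif1a (-0.46 to -0.39) and Pfkm (0.29 to 0.33) for the one between 6 and 24 h. The Pfkm call was also lost with no filter (0.31), with cyclic loess (0.23), with quantile normalization repeated (0.26), with array weights (0.23) and with the replicate block (0.31). For PTHrP it ended those of Egln1 between 1 and 6 h (0.49), and of Hk2 (-0.52 to -0.40), Pfkp (-0.47 to -0.37) and Egln1 (-0.46 to -0.40) between 6 and 24 h. With the mean over a gene's probe sets the PTHrP change of Pfkp between 6 and 24 h was -0.25, which did not pass. The PTHrP changes of Egln1 did not pass under that setting in either interval. That of Slc16a1 between 1 and 6 h was 0.44 and still passed. Whether these changes differed between the ligands was not tested. PTHrP at 24 h replicate 2, which was high for most of the 31 genes, enters the last of them, and without it 10 genes were called there rather than 7.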

How the results depend on the processing

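None of the 108 called differences and changes of single genes reversed its direction under the alternatives run. With array weights the counts of called genes, with the share of all genes then called, were 7 for PTH (5.1%) and 5 for PTHrP (11.2%) at 1 h. For PTH at 24 h the count was 23 (27.9%). For PTHrP against PTH it was 10 at 6 h (28.9%) and 6 at 24 h (8.1%), and for untreated cells at 6 h 10 (8.32%). For the change of the PTH effect between 6 and 24 h it was 14 (32.6%), and for that of the PTHrP effect between 1 and 6 h 12 (39.6%). Fitting only the groups compared gave 2 (PTH at 1 h), 1 (PTHrP at 1 h), 2 (PTHrP at 24 h), 0 (PTHrP against PTH at 24 h) and 7 (untreated cells at 6 h). No filter gave 2 for PTHrP at 24 h, and cyclic loess and a repeated quantile normalization each gave 12 for the change of the PTHrP effect between 1 and 6 h. Among the alternatives, the share of all genes called is given here for array weights only. Counts under the others, with a block or an array left out included, are given without that share and are not read against all genes. The cause of these shifts was not tested.

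Leaving out 1 array at a time gave 1 to 3 called genes for PTH at 1 h, 1 to 4 for PTHrP at 1 h, 15 to 17 for PTH at 6 h, 13 to 17 for PTHrP at 6 h, 8 to 10 for PTH at 24 h and 2 to 5 for PTHrP at 24 h. It gave 0 to 0, 3 to 7 and 0 to 5 for PTHrP against PTH at 1, 6 and 24 h, 4 to 5 and 14 to 17 for untreated cells at 6 and 24 h, 7 to 10 and 7 to 9 for the changes of the PTH effect, and 6 to 8 and 4 to 10 for those of the PTHrP effect. Without PTHrP at 1 h replicate 3, 3 genes were called for PTH and 4 for PTHrP at 1 h.

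With the replicate number as a block, 16 and 14 genes were called for PTH and PTHrP at 6 h, 9 and 3 at 24 h, and 1 and 2 at 1 h. A block for PTHrP and untreated cells at 1 h alone, chosen after seeing the data, gave 2. Among differences between 2 groups, the calls of Pdk4 with PTHrP at 1 h, Slc2a3 with PTH at 6 h, Bnip3 at 6 and 24 h, Pgk1 with PTH and Car9 and Pfkl with PTHrP at 24 h, and those of Hif1a, Pfkfb4 and Pfkm at 6 h and of Hk2, Ldhb and Ndrg1 at 24 h for PTHrP against PTH, and the falls of Hk2, Ldhb and P4ha1 in untreated cells at 24 h, were lost under at least 1 alternative. The number of arrays, and for Egln3 and Aldoc a signal near the filter, limit what could be called.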
